A study of Drosophila melanogaster with 9 samples.

Results

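The elements jockey, jockey2, BS, X-element, Juan and Helena were picked out by exact name from small RNA tables of Drosophila melanogaster testes. All 6 were listed among the 117 transposons of the stage tables and all 6 among the 86 of a combined table of aub and ago3 genotypes. The spermatocyte group held 1 library from can and 1 from sa mutants, meiotic-arrest testes whose apical tips had been cut off to remove dividing germ cells. The spermatogonia group held 1 library from bam and 1 from bgcn mutants, whose germ cells keep dividing, made from whole testes. Whole testes with germ cells of every stage gave 1 library each from y w flies, aub (N11/HN2) mutants, aub/CyO heterozygotes, ago3 (t2/t3) mutants and ago3/TM6 heterozygotes, in which CyO and TM6 are balancer chromosomes. Ages, numbers of animals and pooling are not given in the labels. Transcripts of the mutated genes and of cell type markers were not analysed here, so genotype and stage rest on the labels.

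These elements are LINEs, retrotransposons without long terminal repeats that copy themselves through an RNA that is reverse transcribed at its new genomic site. They belong with Doc, the F-element and the telomeric retrotransposons to the jockey group of LINEs, and most encode a nucleic acid-binding protein and a reverse transcriptase. In the fly germline, piRNAs guide Piwi proteins to transposon RNA. Aub and Ago3 are the cytoplasmic Piwi proteins that cut such RNA and, by cutting sense and antisense transcripts in turn, amplify the piRNAs of active elements. In mutants of either, the germline piRNA supply falls and many transposons are released from silencing.

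The 6 elements differed in their genomic copies in the BDGP6 annotation, which lists 5896 transposon insertions under 156 names. The element jockey, the founding member of the group, had 96 annotated insertions with a median length of 522 bp, of which 37 reached 1000 bp and 42 overlapped a protein-coding gene. The longest span under its name, 14127 bp on arm 2R, encloses 1 annotated insertion of another element, and 13 of its copies measured 4500 to 5500 bp. BS, also a jockey-group element, had 43 insertions with a median of 145 bp, 10 of at least 1000 bp and 6 within 10% of the longest, 5142 bp on arm 3R from 8043844 to 8048985. Juan, a LINE first described in mosquitoes, had 12 insertions with a median of 4231 bp, and 8 of them were within 10% of its longest copy of 4236 bp. The element jockey2, named after its likeness to jockey, had 28 insertions, 22 of them under 500 bp. The longest span under its name, on chromosome 4 from 1175426 to 1178849, also encloses 1 annotated insertion of another element. Helena, known in D. melanogaster from truncated copies, had 9 insertions and none longer than 1438 bp. Under the name X-element the annotation listed 2 insertions, both of 4726 bp, 1 on arm 2R and 1 on arm 3L from 23290581 to 23295306, neither in a protein-coding gene. A further 58 insertions are named X, with lengths of 54 to 5707 bp, and the annotation does not say whether they are the same element, so they were not counted. Most copies of Juan were thus near the longest of its name, whereas 22 of 28 jockey2 and 30 of 43 BS copies were under 500 bp. X-element was not compared in this way, because the 58 insertions named X (median 817 bp) were left out of its count.

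**Figure D1:**
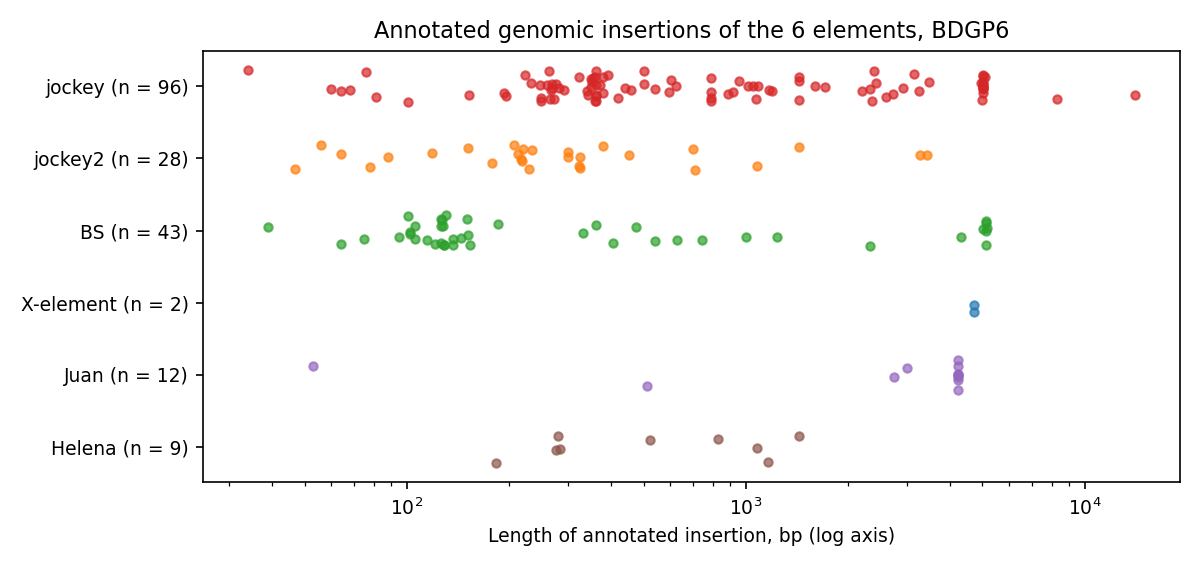
Lengths in bp (log axis) of the annotated insertions of each element in BDGP6, 1 point per insertion with vertical scatter for display only. Juan sits mostly near 4236 bp, BS splits into copies near 5142 bp and short fragments, and Helena has none longer than 1438 bp.

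Read counts of the stage tables were not divided by element length, so values are compared between libraries within an element and not between elements. Transposon-mapping reads per library numbered 519588 (can), 262757 (sa), 438755 (bam), 580459 (bgcn) and 356879 (y w), and the read lengths behind them are not given. Together the 6 elements held 1.38% of these reads in can and 3.16% in sa, against 1.39% in bam and 2.79% in bgcn, with 1.84% in y w. Without X-element the shares were 0.459% and 1.71% in can and sa, against 0.429% and 0.787% in bam and bgcn. The members were all within the 114 elements tested. In bulk testes, fewer cells of a type and less RNA per cell cannot be told apart. Stage, mutant stock and removal of the tips differ together between the groups and cannot be told apart either.

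Small RNAs to jockey passed the test as higher in spermatocyte testes after TMM scaling, and that difference rested on the sa library. The element had 279 reads in can and 2094 in sa, against 265 in bam and 463 in bgcn. As shares of transposon-mapping reads these were 0.0537% in can (95% exact binomial interval 0.0476 to 0.0604) and 0.797% in sa (0.763 to 0.832), against 0.0604% in bam and 0.0798% in bgcn. Only sa was high, and by share can lay below both spermatogonia libraries. After TMM scaling, which sets the typical element equal between libraries, jockey averaged 4692 ± 5640 rpm (reads per 1e6 of scaled library size) in spermatocyte and 585 ± 98.1 rpm in spermatogonia testes (SD, n = 2 each). The log2 fold change was 3.002 (SE 1.01), and the adjusted p in edgeR's quasi-likelihood test over all 114 elements was 0.0392. In total, 10 of the 114 elements (8.77%) passed the threshold of 0.05 as higher and 2 (1.75%) as lower in spermatocyte testes, and jockey was the only member among them. Without sa the log2 fold change of jockey was 0.56 (edgeR adjusted p = 0.867). The share in sa was 14.8-fold that in can, the largest difference between these 2 libraries among the 114 elements, for which the median was 1.77-fold in either direction. The call was also lost without bam (log2 fold change 2.84, edgeR adjusted p = 0.334) and without bgcn (3.18, edgeR adjusted p = 0.279). Scaling by library totals gave 2.60 (edgeR adjusted p = 0.129) and scaling by the authors' factors 2.17 (edgeR adjusted p = 0.169), so neither gave a call. DESeq2 called jockey higher (log2 fold change 3.06, DESeq2 adjusted p = 0.0255), and leaving out can gave a log2 fold change of 3.90.

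The element jockey2 had the same direction, without overlap between the groups by share, but did not pass. It had 224 reads in can and 576 in sa, against 56 in bam and 187 in bgcn. The shares were 0.0431% in can and 0.219% in sa, against 0.0128% in bam and 0.0322% in bgcn, so both spermatocyte libraries lay above both spermatogonia libraries. TMM-scaled levels averaged 1476 ± 1289 rpm in spermatocyte and 187 ± 110 rpm in spermatogonia testes (SD, n = 2 each). The log2 fold change was 2.98 (SE 1.20, edgeR adjusted p = 0.113). DESeq2 gave 3.05 with an adjusted p of 0.00981, where it called 11 of the 114 elements (9.65%) higher. Without can the edgeR adjusted p was 0.0237 at a log2 fold change of 3.68, and without sa it was 0.409 at 1.89, with 10 (8.77%) and 7 elements called higher.

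Juan was higher in both spermatocyte libraries, which were close to each other, while the spermatogonia libraries were far apart. Reads numbered 608 in can and 257 in sa, against 202 in bam and 37 in bgcn. Their shares were 0.117% in can (0.108 to 0.127) and 0.0978% in sa (0.0862 to 0.111), against 0.0460% in bam (0.0399 to 0.0528) and 0.00637% in bgcn (0.00449 to 0.00879). The share in bam was 7.22-fold that in bgcn, the 6th largest difference between these 2 libraries among the 114 elements, where the median was 1.64-fold. TMM-scaled levels averaged 1300 ± 331 rpm in spermatocyte and 223 ± 241 rpm in spermatogonia testes (SD, n = 2 each). The log2 fold change of Juan was 2.55 (SE 1.19) and did not pass in edgeR (adjusted p = 0.199), whereas DESeq2 gave 2.66 with an adjusted p of 0.0364. Left-out libraries gave log2 fold changes of 1.72 (without bgcn) to 4.63 (without bam), all short of the edgeR threshold.

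BS, X-element and Helena did not differ between the stages beyond the spread of the libraries. BS had 1057 reads in can and 1354 in sa, against 997 in bam and 3176 in bgcn, or 0.203% and 0.515% against 0.227% and 0.547%. The share in sa was 2.53-fold that in can and the share in bgcn 2.41-fold that in bam, and the groups overlapped. X-element had 4805 reads in can and 3826 in sa, against 4205 in bam and 11613 in bgcn, or 0.925% and 1.46% against 0.958% and 2.00%. Helena had 215 reads in can and 209 in sa, against 361 in bam and 708 in bgcn. Its shares, 0.0414% and 0.0795% in can and sa, lay below those in bam and bgcn, 0.0823% and 0.122%, and after TMM scaling the groups overlapped. The log2 fold changes were 0.36 for BS (SE 0.86), 0.19 for X-element (SE 0.61) and -0.27 for Helena (SE 1.12), with edgeR adjusted p-values of 0.890, 0.945 and 0.968. With library totals in place of TMM the values of BS and X-element turned to -0.11 and -0.31.

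**Figure D2:**
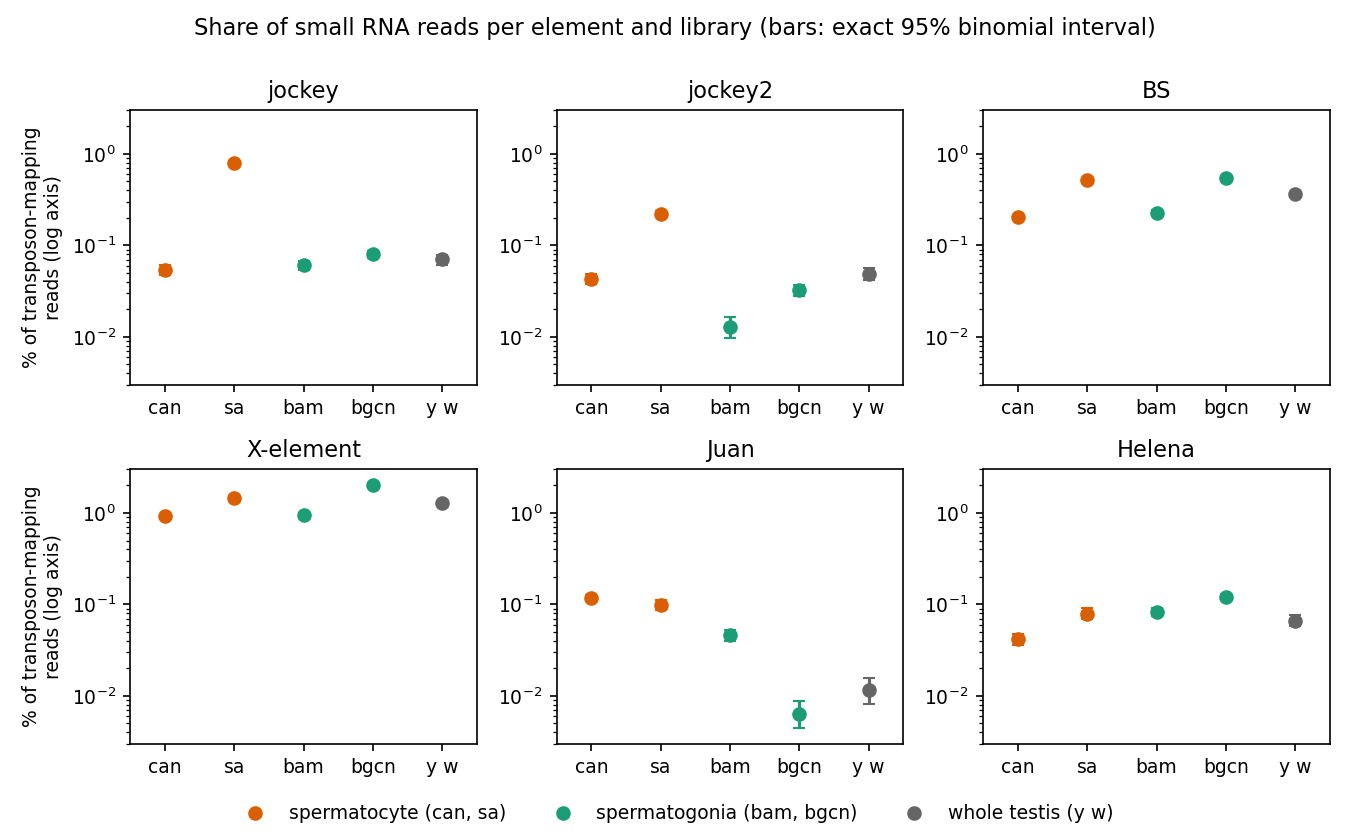
Share of transposon-mapping reads (%, log axis) of each element in the can and sa (spermatocyte), bam and bgcn (spermatogonia) and y w libraries, 1 point per library, with exact 95% binomial bars for counting error. In the jockey panel sa stands alone at 0.797%, and in the Juan panel bgcn and y w are low at 0.00637% and 0.0115%.

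Of the 6 elements, 1 passed as higher, 0 as lower and 5 did not pass, and the median log2 fold change was 1.46 beside -0.05 for all 114 elements. By share, 2 members (jockey2, Juan) had both spermatocyte libraries above both spermatogonia libraries and 1 (Helena) had them below. Over all elements 13.2% lay wholly above and 38.6% wholly below. By TMM-scaled rpm 3 members lay wholly above, jockey included, and 0 below, beside 21.1% and 27.2% of all elements. The related LINE-like elements, 26 of 30 listed names that the tables hold, gave 2 higher, 0 lower and 24 not passed, with a median of -0.04. Those 2 were baggins at 2.61 (SE 0.57, edgeR adjusted p = 2.03e-04) and R1A1-element, which inserts into ribosomal DNA, at 2.19 (SE 0.59, edgeR adjusted p = 0.00490). Of 10 gypsy-type elements typical of the somatic cells of the gonad, 1 passed as higher (Tirant, 3.67, SE 1.24, edgeR adjusted p = 0.0392), 0 as lower and 9 did not pass, with a median of 0.0058. All 10 had reads in every library, and their summed share was 2.65% in can and 5.38% in sa, against 7.39% in bam and 7.36% in bgcn. Their part in the values of jockey, jockey2 and Juan was not tested.

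**Figure D3:**
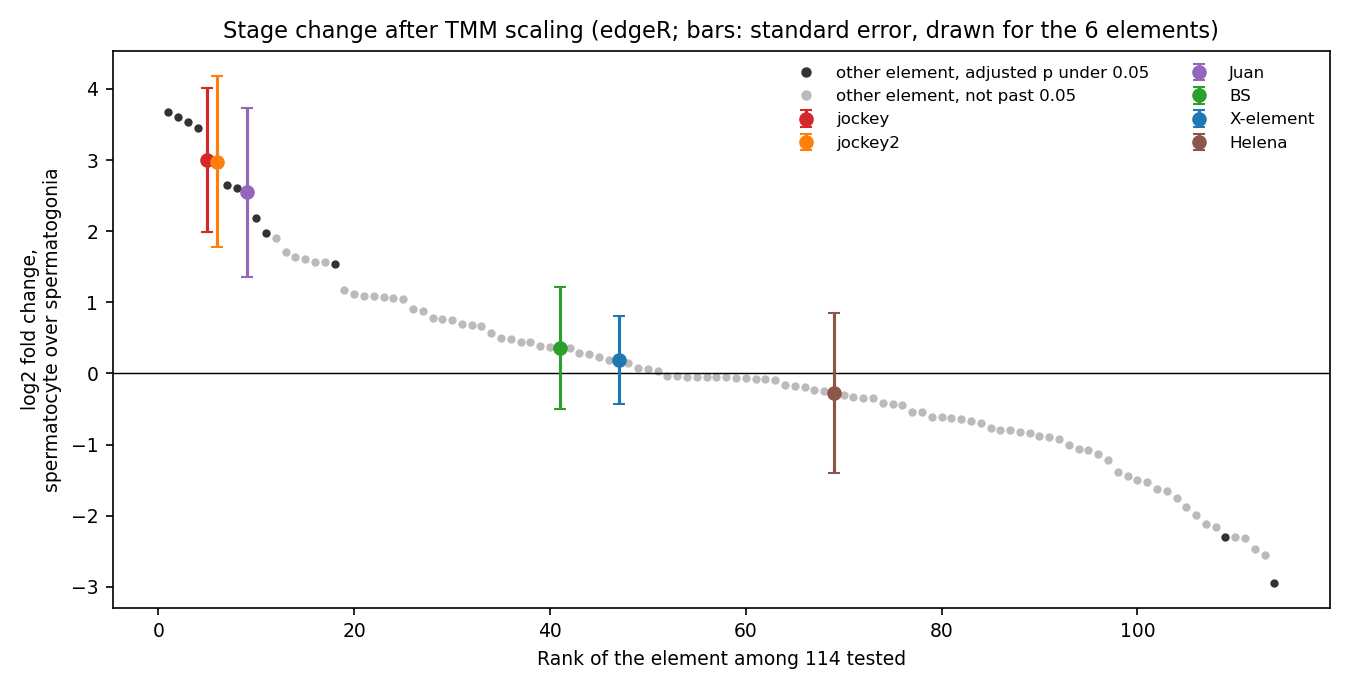
Log2 fold change, spermatocyte over spermatogonia testes, of the 114 tested elements in order of size, with the standard error drawn for the 6 elements and black points for other elements past an adjusted p of 0.05. The values of jockey (3.002), jockey2 (2.98) and Juan (2.55) lie among the highest, and those of BS, X-element and Helena lie near 0.

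In the y w testis, all 6 elements had shares between the lowest and highest of can, sa, bam and bgcn, as did 92 of the 114 elements (80.7%). Juan held 0.0115% of reads in y w (0.00824 to 0.0156), near bgcn at 0.00637% and well under can at 0.117%. The y w share of jockey was 0.0701%, beside 0.0604% in bam and 0.797% in sa, so the sa level stood apart from whole testes too. The element jockey2 held 0.0485% in y w, nearest to can at 0.0431%, with bgcn at 0.0322% and sa at 0.219%. The y w shares of BS (0.361%), X-element (1.28%) and Helena (0.0667%) lay inside ranges of 0.203 to 0.547%, 0.925 to 2.00% and 0.0414 to 0.122%.

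Profiles over these 5 libraries were compared by the root mean square difference of centred log2 levels, where smaller means more alike. BS and X-element had nearly the same profile (0.24), and Helena was close to X-element (0.31) and BS (0.41). The pair jockey and jockey2 differed by 0.73, and Juan was far from each of the other 5 (1.73 to 2.00). Among all tested elements, the nearest to jockey was the foldback element FB (0.51), followed by jockey2, and the nearest to jockey2 were FB (0.51) and baggins (0.73). FB had few reads, with 102 in can and 410 in sa, against 44 in bam and 58 in bgcn. X-element lay nearest to transib3 (0.18), which had 6 to 19 reads per library, and to copia (0.21). The nearest to BS were gypsy10 (0.22) and transib3 (0.23), and those to Helena were 412 (0.18) and Stalker4 (0.19). Juan had no close match, its nearest being mariner2 (1.16) and Tirant (1.20). For scale, the median difference from all other elements was 1.62 for jockey, 0.81 for X-element and 1.93 for Juan.

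In aub mutant testes the levels of the 6 elements in the combined table were lower to very different degrees, by 163.5-fold for X-element and 2.05-fold for Helena. Each genotype had 1 library, so no replicate check or test is possible for these differences, and intervals cover counting error only. Levels are the authors' normalised values, from which whole reads were worked back. X-element had 6 reads in the aub mutant and 1199 in the aub heterozygote, levels of 6.67 and 1090, a ratio of 0.00612 (0.00224 to 0.0134). Among 86 elements this ratio was the 8th lowest when 0 reads were set to 3. On the levels as deposited, the 3 elements at 0 in the aub mutant lie below it too. BS had 5 reads in the aub mutant and 359 in the heterozygote, levels of 5.56 and 326, a ratio of 0.0170 (0.00549 to 0.0401). Both kept few reads in the combined table, whereas over all lengths of 15 to 44 nt the mutant had 15862 X-element and 5910 BS reads, and the level ratios were 0.689 and 0.795. Juan had 4 and 71 reads, a ratio of levels of 0.0689 (0.0183 to 0.184). This was close to the median of all 86 elements, 0.0752 with 0 reads set to 3. For jockey there were 14 reads in the mutant and 89 in the heterozygote, a ratio of 0.192 (0.101 to 0.340). The highest ratios among the 6 were those of jockey2, with 23 reads in the mutant and 68 in the heterozygote (0.413, 0.246 to 0.672), and Helena, with 16 and 40 reads (0.489, 0.256 to 0.893). As a share of all reads in the table, X-element held 0.0711% in the aub mutant and 1.43% in the heterozygote. The share of Helena was 0.190% in the mutant and 0.0476% in the heterozygote, a ratio of 3.98 (2.08 to 7.27), and jockey2 had a share ratio of 3.37 (2.00 to 5.47). Without the 5 most abundant elements the share ratios were 2.58 for Helena, 2.18 for jockey2, 0.0323 for X-element and 0.0899 for BS. Shares of X-element and BS were thus lower, and those of Helena and jockey2 higher, in the mutant with and without those 5.

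Of the 3 members with at least 100 reads in the 2 aub libraries together (jockey, BS, X-element), all 3 had a level ratio of at most 0.5, as did 75% of the 72 such elements. By share, 2 of the 3 (BS, X-element) had a ratio of at most 0.5, beside 48.6% of the 72, and none was at 2 or more, beside 29.2%. Among the 18 related LINE-like elements in that table the median level ratio was 0.0508, and all 15 with at least 100 reads had one of at most 0.5.

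In ago3 mutant testes the levels of all 6 elements were lower in the combined table, by 2.35-fold (jockey2) to 7.09-fold (Juan), and the counting intervals of jockey2, X-element and BS lay apart from each other. X-element had 427 reads in the ago3 mutant, against 966 in its heterozygote, levels of 346 and 1193, a ratio of 0.290 (0.258 to 0.325). BS had 128 reads in the mutant and 560 in the heterozygote, levels of 104 and 692, a ratio of 0.150 (0.123 to 0.182). Juan had 20 and 93 reads (ratio of levels 0.141, 0.0824 to 0.230) and Helena 28 and 110 (0.167, 0.106 to 0.255). The ratio was 0.237 (0.186 to 0.299) for jockey, from 99 reads in the mutant and 274 in the heterozygote, and 0.425 (0.344 to 0.524) for jockey2, from 151 and 233. The ratios of the 6 elements ranked 22nd (Juan) to 75th (jockey2) from the lowest of 86, whose median was 0.233. Each of the 6 reached 100 reads in this pair and had a level ratio of at most 0.5, as did 91.1% of 79 such elements. By share none had a ratio of at most 0.5, beside 15.2% of elements, and jockey2 alone was at 2 or more, at 2.02 (1.63 to 2.48), beside 15.2%, and without the 5 most abundant elements its ratio was 1.79, under 2.

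**Figure D4:**
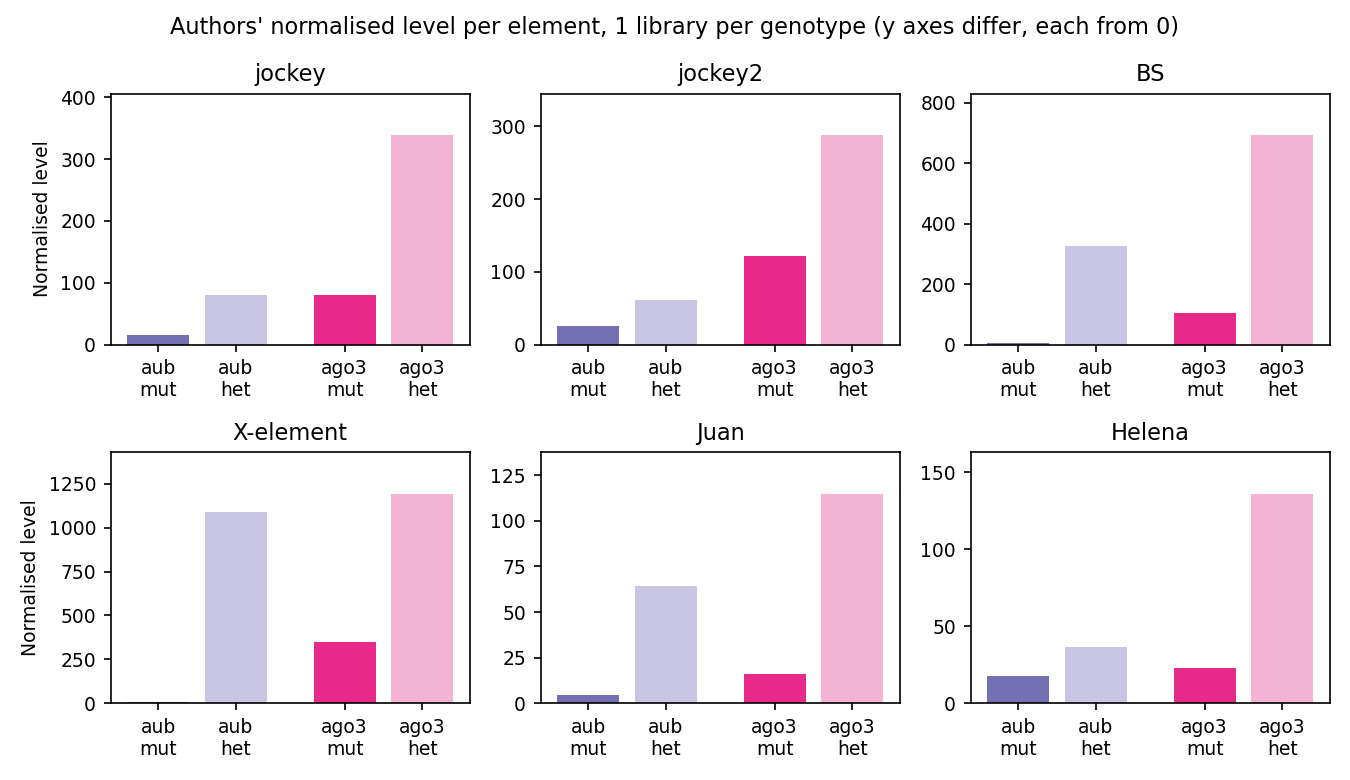
The authors' normalised level of each element in both mutants, each left of its heterozygote, 1 bar per library, on linear axes that differ between panels. The bars of X-element (6.67) and BS (5.56) are barely visible in the aub mutant, while in the ago3 mutant they reach 346 and 104.

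Set side by side, X-element was at 0.00612 of the heterozygote level in the aub mutant and at 0.290 in the ago3 mutant, and BS at 0.0170 and 0.150. Helena ran the other way, with 0.489 in the aub mutant and 0.167 in the ago3 mutant. Its aub value rests on 16 and 40 reads, under the minimum of 100. The counting intervals of Helena, 0.256 to 0.893 (aub) and 0.106 to 0.255 (ago3), nearly met. For jockey (0.192 and 0.237) and jockey2 (0.413 and 0.425) the intervals of the 2 mutants overlapped. Whether the 2 mutants differ was not tested, since each value comes from 1 mutant and 1 heterozygote library. The heterozygotes themselves were not alike: the level in the aub heterozygote was 0.239 of that in the ago3 heterozygote for jockey, 0.215 for jockey2, 0.268 for Helena, 0.472 for BS, 0.562 for Juan and 0.914 for X-element, beside a median of 0.535 over 86 elements.

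**Figure D5:**
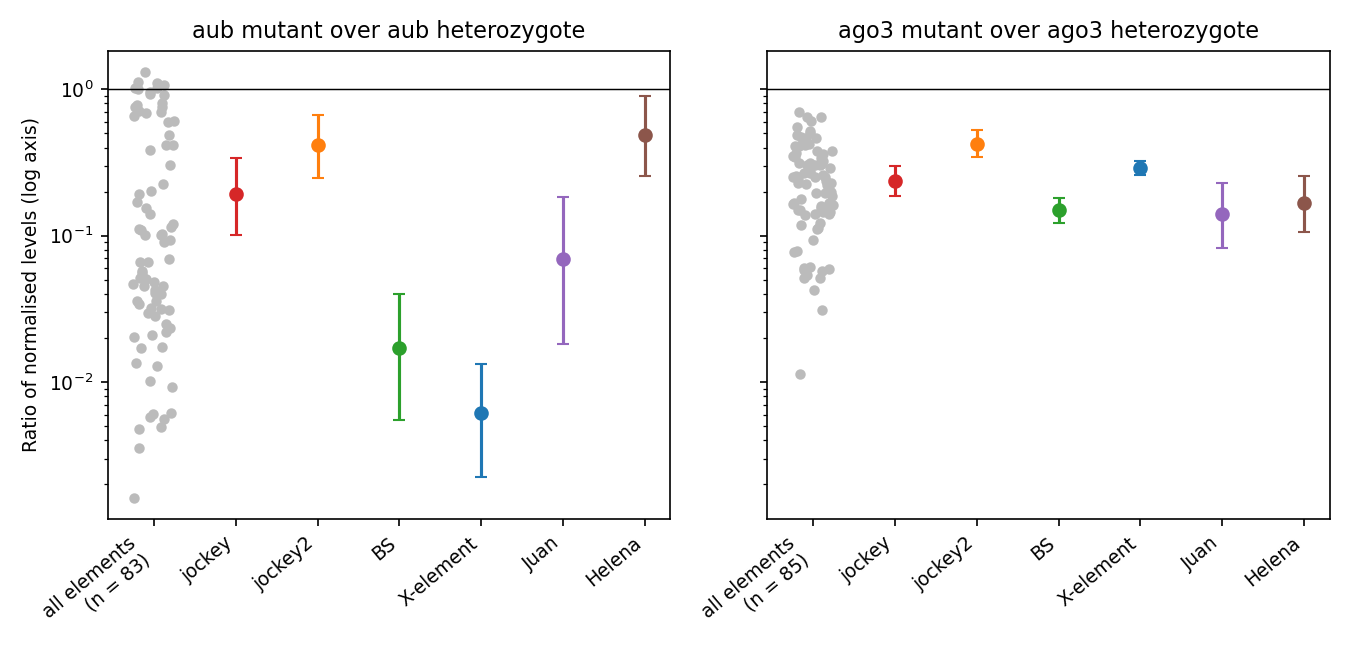
Ratio of normalised levels (log axis), mutant over heterozygote, for the aub and ago3 pairs. Grey points are all elements with reads in the mutant, horizontally scattered for display, without the 3 elements at 0 in the aub mutant and the 1 at 0 in the ago3 mutant, and bars are exact 95% intervals for counting error. In the aub panel the 6 elements run between 0.00612 (X-element) and 0.489 (Helena), and in the ago3 panel between 0.141 (Juan) and 0.425 (jockey2).

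The part of all 15 to 44 nt reads of the elements that stood behind these levels differed widely between libraries. Over the 84 elements named in both tables, the combined table held 1.06% of the all-length reads in the aub mutant, against 7.53% in its heterozygote. For the ago3 pair the parts were 12.8% in the mutant and 46.0% in its heterozygote. Juan was the member with the lowest part, at 0.0310% of 12892 reads in the aub mutant, against 0.399% of 17811 in its heterozygote. In the ago3 pair it was 0.542% of 3691 reads in the mutant, against 7.74% of 1201 in its heterozygote. The highest part in the ago3 heterozygote was that of Helena, 55% of 200 reads. The all-length counts also list a separate Helena entry with the prefix Dvir, which is not 1 of the 6 elements. That entry had 97 reads in the ago3 mutant against 293 in its heterozygote, whereas Helena had 316 against 200. Over all lengths the ratio of levels, mutant over heterozygote, was 0.687 to 0.795 for the 6 elements in the aub pair, and 1.39 (X-element) to 3.22 (Juan) in the ago3 pair. The ago3 ratios over all lengths were thus above 1 for each member, where those of the combined table were below 1. Summed over all 179 elements, all-length reads went the same way, with 381838 in the ago3 mutant against 274660 in its heterozygote. For the aub pair they numbered 1354982 in the mutant against 1742807 in its heterozygote. Such sums weigh most the elements with the most reads, and how many of the 179 elements had a ratio above 1 was not counted. Whether these directions are particular to the members was thus not tested. How lengths are spread within each element is not given in these tables, so the part of short reads in each member's value was not tested.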

How the data were processed

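Small RNAs of hand-dissected testes were sequenced from 9 libraries, per the labels' protocols. Bowtie 1 and DESeq2 are named in the submitters' processing notes without their role. The build, the read lengths kept and how reads shared by several elements (such as jockey and jockey2, or BS and BS3) were counted: not given in the sources used here, so values of related elements are uncertain. In the stage tables the authors deposited raw read counts per transposon and a normalised signal, which equals the count times 1 factor per library (0.710 to 1.36). The combined aub and ago3 table holds a normalised signal deposited by the authors, and 100% of its values were whole multiples of 1 step per library (tolerance 0.001 reads), giving 8434 reads in the aub mutant against 83953 in its heterozygote, and 33018 in the ago3 mutant against 102700 in its heterozygote. All-length tables hold counts of 15 to 44 nt reads, of which 23 to 29 nt reads made up 0.696% in the aub mutant against 5.61% in its heterozygote, and 9.93% in the ago3 mutant against 42.2% in its heterozygote. Left unused were 4 antisense columns naming no sample. Strands are not given per element, so the planned strand shares were not computed, and piRNA cluster tables were not used.

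The stage test was edgeR 4.0.16 (R 4.3.3), TMM scaling and the quasi-likelihood test (two-sided), with Benjamini-Hochberg adjustment over the 114 of 117 elements that reached 10 reads in 2 or more of the 4 libraries. A standard error is the size of the log2 fold change divided by the square root of the F statistic, and the biological coefficient of variation came to 0.577. The libraries of a group are different mutants, so p-values measure the spread between genotypes. Tested on simulated counts of these 114 elements for the stage comparison, it called 9.25% of changes set at 4-fold and 85.75% of those set at 16-fold (20 runs each). Alternatives were DESeq2 1.42.0, library totals, the authors' factors, no filter and leaving out each library. Mutants were set against heterozygotes as ratios with exact 95% binomial intervals (scipy 1.17.1). The members, lists and rule for the nearest elements (2 per member, prior count 2) were chosen with earlier results of these data known. Insertions were read from the Ensembl BDGP6 annotation, and no coordinate of the deposited tables was used with it.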

Additional observations from a re-analysis of the deposited data

How the results depend on the processing

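The depth of 4 to 28 reads in some mutant values and n = 2 per stage limit all results here. Over all tested elements the log2 fold change had a median of -0.05 (TMM), -0.55 (library totals) or -0.88 (the authors' factors). Elements higher in spermatocyte testes numbered 4 (library totals) and 2 (the authors' factors), against 10 with TMM, and 5 to 10 with 1 library left out (5 without bam). Lower elements numbered 8 with the authors' factors and 6 with DESeq2, against 2 with TMM, and 0 to 2 with 1 library left out (0 without sa and 0 without bam, where 3 and 5 had an unadjusted edgeR p under 0.05). The log2 fold change of jockey kept its call in DESeq2 (3.06, DESeq2 adjusted p = 0.0255) and with no filter on low counts (3.02, edgeR adjusted p = 0.0264). It lost its call with library totals (2.60, edgeR adjusted p = 0.129) and with the authors' factors (2.17, edgeR adjusted p = 0.169), and ranged between 0.56 and 3.90 with 1 library left out. For jockey2 that range was 1.89 to 3.75, with a call without can (3.68) and in DESeq2 (3.05). Juan was called in DESeq2 (2.66). Signs of values that did not pass turned for BS (-0.11 with library totals, -0.55 with the authors' factors), X-element (-0.31 and -0.73) and, with 1 library left out, for BS (-0.12 to 1.09), X-element (-0.23 to 0.77) and Helena (-0.51 to 0.033). Where a scaling or a left-out library moved a value, the cause was not tested. No paired analysis was possible because the labels give the stage libraries no replicate numbers and each aub and ago3 genotype has 1 library.

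Divided by 23 to 29 nt reads instead of taken on the authors' scale, the aub ratios were 1.63 (jockey), 3.50 (jockey2), 0.144 (BS), 0.0518 (X-element), 0.584 (Juan) and 4.14 (Helena), and the ago3 ratios 1.10 (jockey), 1.98 (jockey2), 0.698 (BS), 1.35 (X-element), 0.656 (Juan) and 0.777 (Helena). Such a ratio is relative to the 23 to 29 nt transposon reads of the library, not to those of all lengths. These numbered 9437 in the aub mutant and 97747 in its heterozygote, beside 8434 and 83953 reads in the combined table. In the ago3 pair they numbered 37932 and 115785, beside 33018 and 102700. Because the 2 sets of totals are near each other, the ratio is close to the share ratio and is no separate support for it. With reads of all lengths the aub ratios were 0.687 (jockey), 0.783 (jockey2), 0.795 (BS), 0.689 (X-element), 0.750 (Juan) and 0.781 (Helena). That of Helena alone lay within its counting interval in the combined table (0.256 to 0.893). The ago3 ratios over all lengths were 1.41 (jockey), 1.82 (jockey2), 1.62 (BS), 1.39 (X-element), 3.22 (Juan) and 1.66 (Helena). Without the 5 most abundant elements the ago3 share ratio of X-element was 1.218, below its counting interval with all elements (1.224 to 1.542). That of jockey2 was 1.79 (under 2), within its counting interval. The aub share ratios of Helena, jockey2, BS, X-element, Juan and jockey were then 2.58, 2.18, 0.0899, 0.0323, 0.364 and 1.02. Each of these aub values lay within its counting interval.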
